A study of Mus musculus with 5 samples.

Results

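Group 2 innate lymphoid cells (ILC2) of the injured mouse lung were examined in droplet scRNA-seq libraries of *Ms4a3-CreER;R26-tdT* mice, in which tamoxifen lets the monocyte-lineage *Ms4a3* promoter switch on a tdT reporter. The 5 libraries held immune cells from lungs given PBS (sham) and from lungs taken on day 3, day 7, day 14 and day 28 after intratracheal bleomycin, with 1 library per time point, and all mice carried the same genotype on a mixed C57BL6/129 background and were adults. The number of mice behind each library is not given in the sources used here. A barcode counted as an ILC2 when it held at least 1 UMI (a unique molecular identifier, which stands for 1 captured RNA molecule) of *Gata3*, 1 of *Il7r* and 1 of *Il1rl1*, *Areg* or *Rora*, no UMI of *Cd3d*, *Cd3e*, *Cd3g*, *Trdc*, *Ncr1*, *Cd79a* or *Car4*, and at most 1 of *Cd68* and *Mrc1*. This gate found 61 ILC2 among the 44772 barcodes within the limits on genes, UMIs and mitochondrial share, out of 52800 deposited. The members were chosen by these gate genes, whose values are therefore given as a description. The 61 cells held 318330 UMIs, 5088 in the median cell, in libraries of 89769386 to 167506186 UMIs.

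ILC2 are tissue-resident lymphocytes without antigen receptors. In the lung they respond to the epithelial alarmins IL-33, IL-25 and TSLP, which signal through *Il1rl1*, *Il17rb* and *Crlf2* with *Il7r*, and they release type 2 cytokines that act on eosinophils, macrophages and the epithelium. *Gata3*, *Rora* and *Id2* encode transcription factors on which their development depends, and amphiregulin (*Areg*) is their best known tissue repair product.

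ILC2 were rare at every time point. The sham library held 16, or 0.173% of its barcodes (0.0990 to 0.281, the exact 95% binomial limits). Day 3 had 9 (0.112%, 0.0514 to 0.213), day 7 had 8 (0.0843%, 0.0364 to 0.166), day 14 had 17 (0.219%, 0.128 to 0.351) and day 28 had 11 (0.107%, 0.0534 to 0.191). All 5 intervals overlapped, and with 1 library per time point no difference between time points was tested. As a share of gated lymphocytes (ILC2, CD3-positive cells, NK cells and B cells) ILC2 made up 1.81% (1.04 to 2.92) in sham, 0.451% (0.206 to 0.855) on day 3, 0.623% (0.269 to 1.22) on day 7, 1.00% (0.584 to 1.60) on day 14 and 0.577% (0.288 to 1.03) on day 28, and here the sham interval lay above those of day 3 and day 28. Intervals here and elsewhere cover counting error only. The cells that met the same gate but held CD3 UMIs, and no *Foxp3*, numbered 30, 45, 91, 113 and 65 from sham to day 28, so that ILC2 made up 34.8% (21.4 to 50.2) of the ILC2 and these CD3 cells together in sham. The share was 16.7% (7.92 to 29.3) on day 3, 8.08% (3.55 to 15.3) on day 7, 13.1% (7.81 to 20.1) on day 14 and 14.5% (7.45 to 24.4) on day 28. The sham interval lay above those of day 7 and day 14. The day 7 library held no barcode under 4624 UMIs, against 500 to 502 in the others, and with that floor the share of ILC2 barcodes was 0.0894% on day 14 (5 cells) and 0.0268% on day 28 (2 cells).

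**Figure D1:**
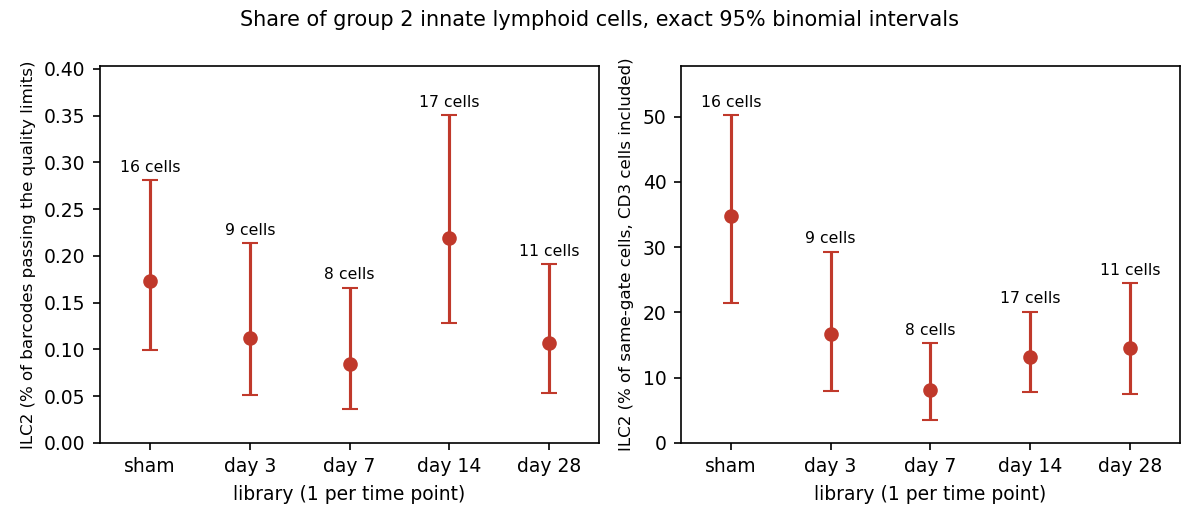
Share of ILC2 in each library, in percent of barcodes within the quality limits (left) and in percent of the ILC2 and CD3 cells that met the same gate (right), with exact 95% binomial intervals. On the left all 5 intervals overlap, and on the right the sham share of 34.8% stands highest and the day 7 share of 8.08% lowest.

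The label was checked on 14 ILC2 markers that the gate did not use (among them *Il5*, *Il13*, *Klrg1*, *Icos*, *Hs3st1*, *Id2*, *Il2ra*, *Cxcr6* and *Calca*). A median ILC2 held UMIs of 7 of them, with a range of 0 to 12, and 55 of the 61 cells held 3 or more. The 6 cells with fewer were 3 of the 17 of day 14 and 3 of the 11 of day 28, the libraries with the shallowest ILC2, so that the label is weakest there. After thinning to 3000 UMIs per cell, which left out 7 shallower ILC2, 52 of 54 ILC2 held 3 or more markers, against 180 of 321 CD3 cells of the same gate (56.1%), 1 of 1086 B cells and 7 of 2000 *Car4* macrophages. Several defining genes of other lineages were at 0 in all 61 cells: *Cd8a* and *Cd8b1* of cytotoxic T cells, *Klrb1c*, *Klrd1*, *Prf1* and *Eomes* of NK cells, *Il17a* and *Il22* of ILC3, *Mcpt8* and *Cpa3* of basophils and mast cells, *Ms4a1* of B cells and *Csf1r* of macrophages. The whole lists for these lineages were not at 0. UMIs were found for 17 of 19 macrophage and monocyte genes (1197 UMIs in all 61 cells, led by *Lyz2* with 353), for 7 of 15 NK cell and ILC1 genes (90 UMIs in 31 cells, led by *Ccl5* with 48), for 6 of 9 ILC3 genes (86 in 34 cells, led by *Kit* with 45), for 4 of 8 B and plasma cell genes (49 in 33 cells, led by *Ighm* with 40), for 4 of 11 mast cell and basophil genes (9 in 7 cells) and for 15 of 18 T cell genes outside the gate (599 in 59 cells, led by *Trbc2* with 144). *Trac*, the T cell receptor α constant gene, had 9 UMIs in all, in 7 cells, and *Cd4* had 1. One day 14 barcode stood apart, with 4012 of its 4953 UMIs from hemoglobin genes, while the other 16 cells of that library together held 29. No barcode was an ILC2 in more than 1 library, although pairs of libraries shared 16 to 31 barcodes.

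Cells just outside the gate looked different for most of its limits. The 568 barcodes that missed it only by CD3 included 10 with a single CD3 UMI, which had 82.9 CPM (counts per 1e6, the UMIs of a gene scaled to a common total of summed UMIs) of *Hs3st1* and 16.6 CPM of *Trac*, and 528 with 4 or more, which had 3.70 CPM of *Hs3st1* and 642 CPM of *Trac*. The 61 members had 201 CPM of *Hs3st1* and 28.3 CPM of *Trac*. A further 281 barcodes missed only *Gata3* and had 15.7 CPM of *Hs3st1*, 14 missed only *Il7r*, and 11 missed only *Il1rl1*, *Areg* and *Rora*. Among the members, 10 held a single *Gata3* UMI (172 CPM of *Hs3st1*), 4 a single *Il7r* UMI, and 6 a single UMI of *Il1rl1*, *Areg* and *Rora* (59.7 CPM of *Hs3st1*).

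Receptors and transcription factors of the gate are given as a description, since the members were selected on them. *Il1rl1*, the IL-33 receptor, had 32, 35, 28, 49 and 28 UMIs from sham to day 28, or 367, 484, 551, 734 and 679 CPM, in 46 of the 61 cells. *Gata3* ranged from 511 CPM on day 7 to 869 on day 14, *Il7r* from 526 on day 3 to 2230 on day 28, and *Rora* from 461 on day 28 to 1154 on day 14. Over all libraries *Il1rl1* stood at 540 CPM and *Rora* at 870 CPM in ILC2. CD3 cells of the same gate, which met the same limit on *Il1rl1*, *Areg* or *Rora*, had 73.6 CPM of *Il1rl1*.

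Among receptors outside the gate, *Icos*, the costimulatory receptor, had 7 UMIs in sham, 13 on day 3, 19 on day 7, 42 on day 14 and 4 on day 28. Its day 14 level was 7.84 times that of sham (3.49 to 20.7), whereas the day 28 ratio was 1.21 (0.259 to 4.75). *Kit*, the stem cell factor receptor, followed a like order with 3, 10, 11, 19 and 2 UMIs. *Il17rb*, the IL-25 receptor, had 2, 3, 5 and 5 UMIs up to day 14 and 11 on day 28, in 6 of 11 cells, for a day 28 to sham ratio of 11.6 (2.54 to 108). *Cxcr6*, a tissue-homing chemokine receptor, was highest in sham, with 746 CPM against 291, 216, 300 and 412 CPM after bleomycin, and the interval of each ratio to sham lay below 1, although without the highest sham cell the day 28 ratio was 0.624 (0.339 to 1.10). Of the receptors for neuropeptides and lipids, *Ramp1*, a subunit of the CGRP receptor, had UMIs in 48 of 61 cells, at 339 to 650 CPM. *Ptgdr2* and *S1pr1* had no UMI in any ILC2.

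Type 2 cytokines were found mainly in sham, day 3 and day 7 cells. *Il5*, the eosinophil growth factor, had 10 UMIs in 5 of 16 sham cells, 19 in 4 of 9 cells on day 3 and 10 in 2 of 8 cells on day 7, and none in the 17 cells of day 14 or the 11 of day 28. The sham level of 115 CPM was at least 2.55-fold higher than that of day 14 and at least 1.58-fold higher than that of day 28, taking 3 UMIs as the limit that a count of 0 allows. In sham 5 of the 10 UMIs lay in 1 cell, and without it the sham level was 61.8 CPM, above the 44.9 CPM that 3 UMIs give on day 14 but below the 72.7 CPM that they give on day 28. Without the highest cell of day 7, 1 of its 10 UMIs was left. *Il13* had 3 UMIs in sham, 8 on day 7 and none elsewhere. *Csf2*, which encodes GM-CSF, had 18, 85, 31, 4 and 0 UMIs, so that its level was 5.70 times that of sham on day 3 (3.40 to 10.1), 2.95 times on day 7 (1.60 to 5.60) and 0.290 times on day 14 (0.0715 to 0.881), while the day 28 level was at least 2.84-fold lower. Single cells carried much of the *Csf2*. On day 3, 52 of the 85 UMIs came from 1 cell, and without it the level was 530 CPM, against 206 CPM in sham. Without the highest cell of day 7 its 31 UMIs fell to 8 and the ratio to sham to 0.874 (0.329 to 2.11), so that the higher day 7 level rested on that cell. The 4 UMIs of day 14 lay in 1 cell, and without the highest sham cell that ratio was 0.409 (0.0961 to 1.35). A UMI of *Il5*, *Il13* or *Csf2* was found in 9 of 16 sham cells, 7 of 9 on day 3, 5 of 8 on day 7, 1 of 17 on day 14 and 0 of 11 on day 28. Depth differed too, with a median of 5475, 6597 and 6186 UMIs per ILC2 in the first 3 libraries and 3891 and 3967 in the last, and after thinning to 3000 UMIs *Csf2* was still found in 5 of 16, 5 of 9, 4 of 8, 1 of 13 and 0 of 8 cells. *Il9*, *Il6* and *Il3* had no UMI in any ILC2. CD3 cells of the same gate had 4.75 CPM of *Il5* and 9.10 CPM of *Csf2* over all libraries, and *Car4* macrophages had 0.0173 and 0.0562 CPM. The list of 8 cytokines also held *Il2*, a T cell growth factor that is not a type 2 cytokine, which had 5, 2, 8, 3 and 6 UMIs from sham to day 28. The other 7 together reached 367, 1439, 1101, 59.9 and 24.2 CPM in ILC2 and 53.2, 13.7, 26.8, 15.3 and 0 CPM in the CD3 cells.

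**Figure D2:**
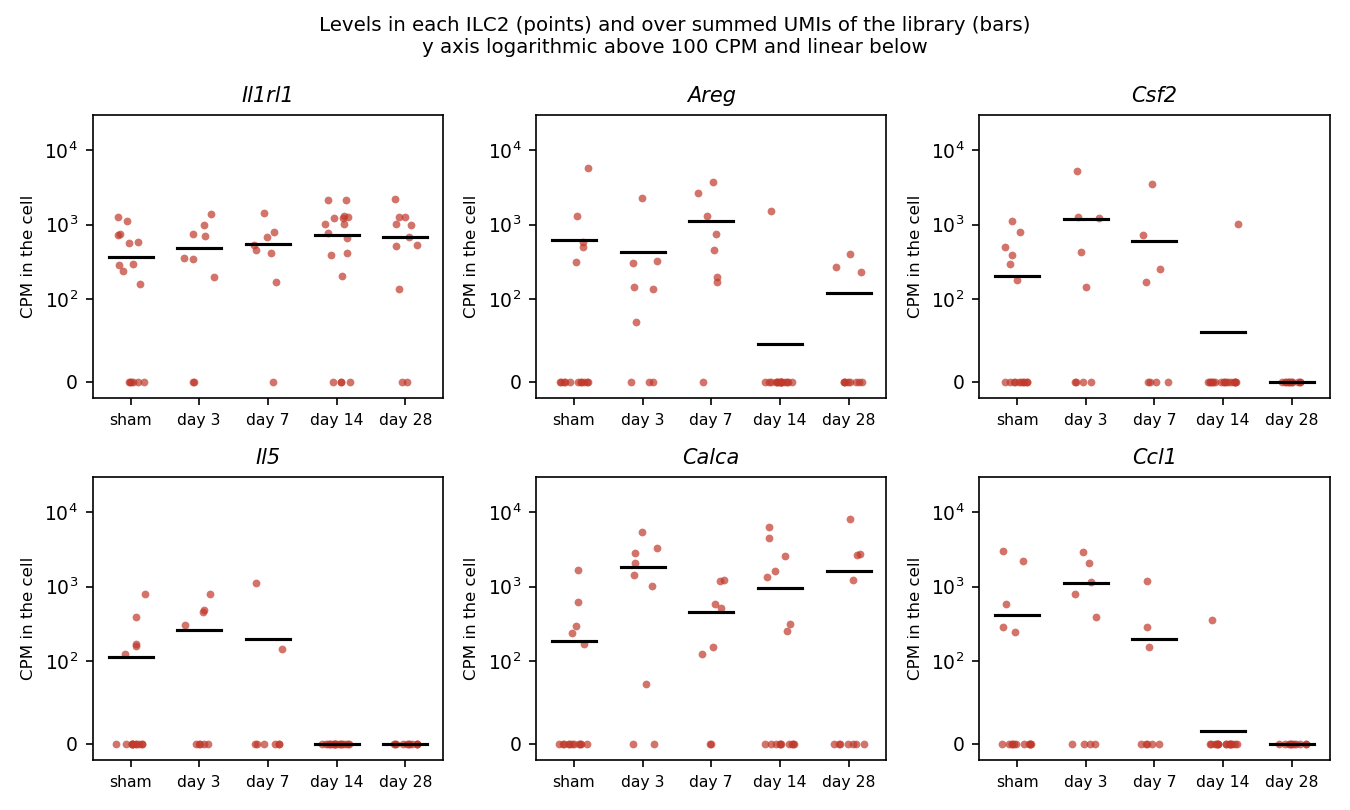
Levels of *Il1rl1*, *Areg*, *Csf2*, *Il5*, *Calca* and *Ccl1* in each of the 61 ILC2, in CPM of the cell's own UMIs on an axis that is logarithmic above 100 CPM and linear below, with 1 point per cell and a bar for the summed UMIs of the library. *Il5* and *Csf2* points above 0 lie in sham, day 3 and day 7 apart from 1 day 14 cell with 4 *Csf2* UMIs, whereas *Calca* points above 0 occur in all 5 libraries.

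*Il5* and *Il13* both lie in the type 2 cytokine locus on chromosome 11, where GATA3 is known to act, and *Calca* encodes the peptide CGRP. GENCODE places *Il5* at chr11:53720794-53725106 on the plus strand, *Il13* at chr11:53631324-53634702 on the minus strand and *Calca* at chr7:114631478-114636357 on the minus strand (GRCm38). Their promoters, 250 bases before to 50 bases after the RefSeq gene start (GRCm38.p6), are shown 5′ to 3′ because these genes carry the cytokine and CGRP results, with a GATA motif in capitals. The letters searched were AGATAA and also AGATAG, as well as TGATAA and likewise TGATAG, on either strand. The windows are chr11:53720544-53720843 on the plus strand, chr11:53634653-53634952 on the minus strand and chr7:114636308-114636607 on the minus strand.
Il5: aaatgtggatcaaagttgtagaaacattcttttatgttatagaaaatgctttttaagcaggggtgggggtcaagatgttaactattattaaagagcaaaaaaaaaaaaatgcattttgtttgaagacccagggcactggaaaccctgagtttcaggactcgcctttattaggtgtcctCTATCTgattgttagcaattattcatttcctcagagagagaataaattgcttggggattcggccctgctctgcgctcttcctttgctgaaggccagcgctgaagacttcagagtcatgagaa
Il13: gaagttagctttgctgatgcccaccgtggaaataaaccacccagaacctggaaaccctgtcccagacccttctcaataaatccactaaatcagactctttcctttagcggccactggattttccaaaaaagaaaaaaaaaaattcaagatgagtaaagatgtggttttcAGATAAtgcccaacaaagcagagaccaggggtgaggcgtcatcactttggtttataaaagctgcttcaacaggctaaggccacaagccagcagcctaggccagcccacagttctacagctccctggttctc
Calca: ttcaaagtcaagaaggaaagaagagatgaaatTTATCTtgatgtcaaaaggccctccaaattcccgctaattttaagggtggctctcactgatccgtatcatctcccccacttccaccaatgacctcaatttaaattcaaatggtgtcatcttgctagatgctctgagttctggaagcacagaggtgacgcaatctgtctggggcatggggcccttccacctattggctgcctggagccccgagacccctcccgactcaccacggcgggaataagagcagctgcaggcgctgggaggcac

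Each window held 1 match, which began 72 bases before the gene start in *Il5*, 81 bases before in *Il13* and 218 bases before in *Calca*. The motif was present in 9778 of 32851 RefSeq promoters (29.8%), so that a match in such a window is common, and it is a description of the letters and not of a site that is bound.

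*Calca*, unlike *Il5*, *Il13* and *Csf2*, was found in all 5 libraries. It had 16 UMIs in sham, 134 on day 3, 23 on day 7, 64 on day 14 and 67 on day 28, in 5, 7, 6, 7 and 4 cells. In CPM these were 184, 1854, 452, 959 and 1624, so that the level was 10.1 times that of sham on day 3 (5.998 to 18.2), 2.46 times on day 7 (1.25 to 4.99), 5.22 times on day 14 (2.99 to 9.68) and 8.85 times on day 28 (5.07 to 16.4). Single cells carried much of it, with 55 of the 134 UMIs on day 3, 31 of 64 on day 14 and 36 of 67 on day 28 in 1 cell each, and without that cell the levels were 1269, 533 and 841 CPM. The day 7 ratio was 1.94 (0.907 to 4.14) without the highest cell of that day. In sham 9 of the 16 UMIs lay in 1 cell, without which the sham level was 85.5 CPM. The ratios to sham were then 21.7 on day 3, 5.29 on day 7, 11.2 on day 14 and 19.0 on day 28. Over all libraries *Calca* stood at 955 CPM in ILC2, 19.8 in CD3 cells of the same gate, 4.49 in NK cells and 0.381 in B cells. *Areg*, a gate gene, had 54, 31, 57, 3 and 5 UMIs in 5, 6, 7, 1 and 3 cells, or 619, 429, 1121, 44.9 and 121 CPM, and 37 of the 54 sham UMIs came from 1 cell. *Calca* and *Areg* were found together in 14 cells, of which 6 were from day 3 and 6 from day 7.

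*Ccl1*, the ligand of the chemokine receptor CCR8, had 36 UMIs in sham, 80 on day 3, 10 on day 7, 1 on day 14 and 0 on day 28. Its level was 2.68 times that of sham on day 3 (1.79 to 4.09) and 0.476 times on day 7 (0.211 to 0.980), the day 14 ratio was 0.0363 (8.94e-04 to 0.215), and the day 28 level was at least 5.68-fold lower. In sham 18 of the 36 UMIs came from 1 cell, and without it the sham level was 222 CPM and the day 7 ratio 0.887 (0.366 to 2.03), so that the lower day 7 level rested on that cell. NK cells also expressed *Ccl1*, with 130 CPM over all libraries against 399 in ILC2. *Hs3st1*, a heparan sulfate sulfotransferase, had 12, 22, 12, 9 and 9 UMIs and *Klrg1*, an inhibitory lectin-like receptor, had 15, 10, 3, 9 and 9. After thinning, *Hs3st1* was found in 5 of 16, 4 of 9, 4 of 8, 2 of 13 and 2 of 8 ILC2, in 9.91% to 19.8% of B cells, and in at most 4.40% of the CD3 cells.

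In each sham, day 14 and day 28 library, ILC2 were set against the CD3 cells of the same gate, which share *Gata3*, *Il7r* and *Il1rl1*, *Areg* or *Rora* with them. UMIs were summed per class and library (44 ILC2 with 195187 UMIs and 208 CD3 cells with 1154483 UMIs), and the 15 genes used in the gates were left out. Day 3 and day 7 held fewer than 10 ILC2. Of 2647 genes tested with edgeR, 71 were higher in ILC2 (2.68%) and 96 were lower (3.63%) at an adjusted p under 0.05.

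Of the 10 largest changes among higher genes with the same direction in all 3 libraries, *Stab2* and *Hs3st1* were on the list of ILC2 surface and effector proteins and *Calca* on that of other secreted factors. *Calca* was at 184, 959 and 1624 CPM in ILC2 of sham, day 14 and day 28, against 10.6, 21.4 and 6.41 CPM in the CD3 cells, a log2 fold change of 5.95 (SE 0.40, edgeR adjusted p 3.90e-07). *Hs3st1* was higher by 4.96 (SE 0.81, edgeR adjusted p 0.00133) and *Prnp*, which encodes the prion protein, by 4.00 (SE 0.53, edgeR adjusted p 1.82e-04). *Stab2*, a scavenger receptor gene, had 23 UMIs in ILC2 and 1 in the CD3 cells, a ratio of 136 (22.1 to 5604). *Bmp2*, a growth factor of the TGF-β family, had 22 against 2 UMIs, a ratio of 65.1 (16.0 to 571), and *Rgs18*, a regulator of G protein signalling, 14 against 2, a ratio of 41.4 (9.51 to 375). *Spry2*, *H2-Oa*, *Slc7a8* and *Dach2*, with log2 fold changes of 3.81 to 4.08, completed the 10 largest changes.

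Of the 24 tested genes on the list of ILC2 surface and effector proteins, 9 were higher in ILC2, 5 were lower and the median log2 fold change was 0.31, against -0.04 over all genes tested. The 9 included *Klrg1* (2.28, SE 0.41, edgeR adjusted p 0.00292), the ubiquitin ligase gene *Rnf128* (2.66), the phosphatase gene *Ptpn13* (1.73) and the leukotriene B4 receptor gene *Ltb4r1* (1.91). The 5 lower ones were *Ccr7*, *Cd48*, *Lgals1*, *S100a6* and *Thy1*. *Il2ra*, the high-affinity subunit of the IL-2 receptor, was the 1 of 12 tested receptors for other cytokines to pass, with 62 UMIs in ILC2 and a log2 fold change of 2.03. Of 13 transcription factors *Lmo4* was higher (1.61), and *Klf2* (-2.17) and *Tcf7* (-2.28), which are active in circulating and memory T cells, were lower. *Id2* had a log2 fold change of 0.63 with an edgeR adjusted p of 0.0589. Immediate early genes, which dissociation of tissue also induces, were higher for 5 of 13 (*Fos*, *Fosb*, *Jun*, *Junb* and *Nr4a1*) with a median of 0.68, and their part in the other differences was not tested. Of 9 tested secreted factors *Calca*, *Cxcl2* and *Ltb* were higher and *Ccl5* was lower (-3.29). None of the 8 listed cytokines had enough UMIs to be tested. Of 8 alarmin and costimulatory receptors, *Il18r1* (-3.17) and *Tnfrsf4* (-4.21) were lower.

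Of the 96 genes lower in ILC2, 13 were on the list of T cell genes outside the gate, where they made up 13 of 17 tested. The classes were divided by CD3, so that their direction follows from the gate and gives no separate support to the label. *Trac* had 3 UMIs in ILC2 and 573 in the CD3 cells, a ratio of 0.0310 (0.00637 to 0.0910), and *Ms4a4b*, a T cell membrane protein gene, had 3 against 923. The 10 largest changes among lower genes with the same direction in all 3 libraries had no UMI in ILC2. They were *S1pr1*, the receptor for exit from tissue into lymph (at least 19.7-fold lower), *Gm8369* (15.6), *Tbc1d4* (11.7), *Cd8b1* (9.86), *Kbtbd11* (8.57), *Cd40lg* (7.78), *Tnfsf8* (7.72), *Cxcr3* (5.97), *Tcrg-C2* (5.52) and *Klrd1* (5.13), with each number a lower bound of the fold. *Trbc1* and *Trbc2*, the T cell receptor β constant genes, were only 1.49 and 1.34 lower on the log2 scale, and *Trbc2* had UMIs in 11 of 16 sham ILC2 (49 UMIs), a share of 62.5% after thinning against 1.35% in B cells.

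The count of calls against the CD3 cells leaned on the sham library, without which 45 genes were higher and 28 lower, with 39 of the 71 higher and 26 of the 96 lower genes called again. Of the 66 named or listed genes that could still be tested 30 no longer passed, among them *Cd8b1*, *Cd40lg*, *Tcrg-C2*, *Cxcr3*, *Ptpn13* and *Thy1*. The hemoglobin genes *Hba-a1*, *Hba-a2*, *Hbb-bs* and *Hbb-bt* were also among those higher, but *Hba-a1* and *Hbb-bs* turned to log2 fold changes of -1.53 and -4.89 when cells with any UMI of *Cd4*, *Cd8a*, *Cd8b1*, *Trac* or *Foxp3* were left out, which removed the day 14 cell described above.

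**Figure D3:**
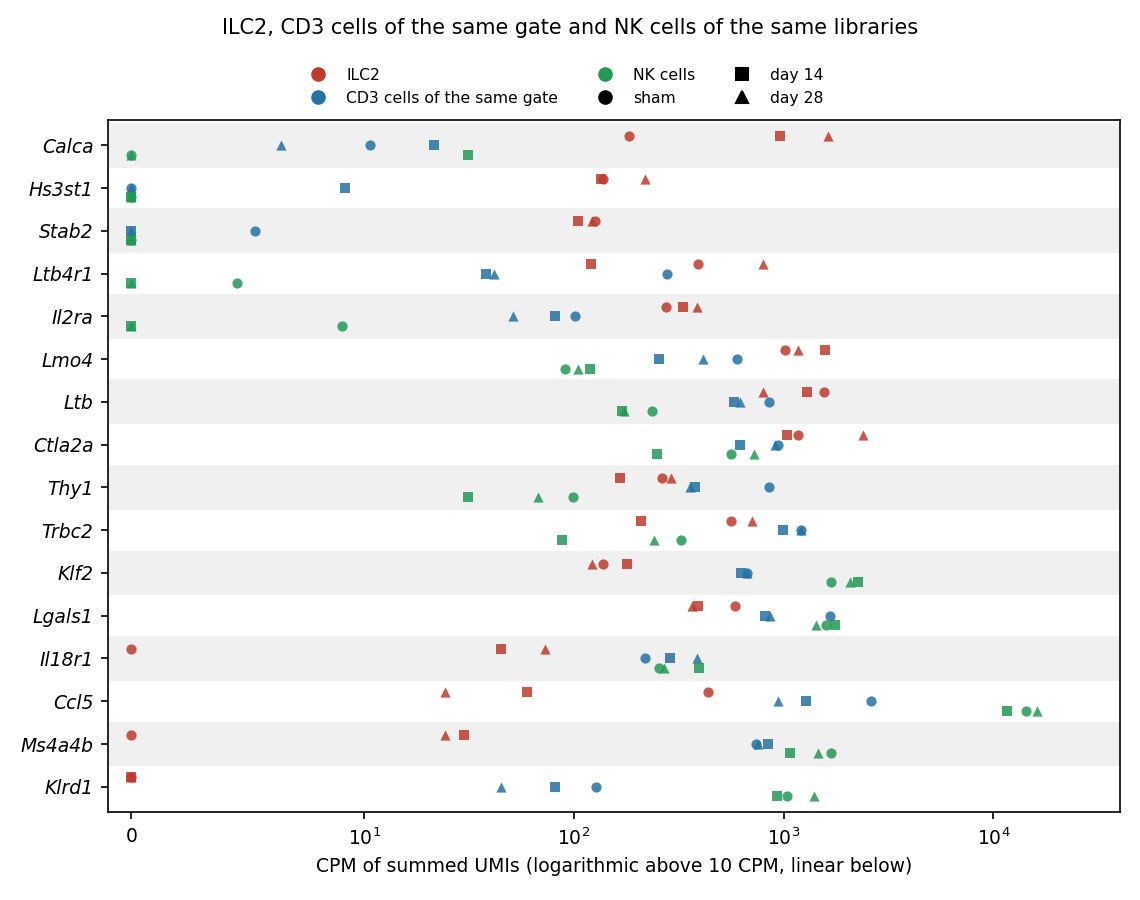
Levels of named genes, in CPM of summed UMIs, in ILC2 and in the cells they were compared with (CD3 cells of the same gate and NK cells), for the sham, day 14 and day 28 libraries, with 1 point per library and an axis that is logarithmic above 10 CPM and linear below. *Calca* at 184 to 1624 CPM in ILC2 lies above the 6.41 to 21.4 CPM of the CD3 cells in each library.

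NK cells, which are also CD3-negative innate lymphocytes, gave a larger contrast. With 142 NK cells and 514720 UMIs in the same 3 libraries, 249 of 2201 genes were higher in ILC2 (11.3%) and 206 were lower (9.36%). *Hlf*, a PAR bZIP transcription factor, had 39 UMIs in ILC2 and none in NK cells and was at least 34.3-fold higher, and *Pard3*, a cell polarity gene, at least 28.1-fold. *Hs3st1* and *Ptpn13* were each at least 26.4-fold higher, *Stab2* at least 20.2-fold and *Pxdc1* at least 19.3-fold. *Tnfsf11*, which encodes RANKL, and *Pdcd1*, which encodes PD-1, were each at least 16.7-fold higher. *Ltb4r1* had 75 UMIs against 1, a ratio of 198 (34.4 to 7915). *Hba-a1* was also among the 10 largest, and 916 of its 930 day 14 UMIs lay in the hemoglobin-rich cell. Without that cell its day 14 level was 227 CPM, against 68.7 CPM in NK cells. In sham its level was 161 CPM, against 9.04 CPM in NK cells.

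Receptors differed between the classes in both directions. *Il2ra* was found with 62 UMIs in ILC2 and 2 in NK cells, a ratio of 81.7 (21.7 to 690), whereas *Il2rb*, the shared IL-2 and IL-15 receptor subunit, was lower by 2.81 on the log2 scale. *Cxcr6* was higher by 3.81, *Lmo4* by 3.66, *Ramp1* by 3.09 and *Icos* by 2.50. *Cish*, a STAT5-induced inhibitor of cytokine signalling, was higher by 4.27 and *Tnfaip3*, an inhibitor of NF-κB, by 1.33. Among 12 tested checkpoints and inhibitors 6 were higher and none lower, against 11.3% higher and 9.36% lower over all genes tested. *Klf2* (-3.61), *Zeb2* (-1.85) and *Runx3* (-1.13) were lower.

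All 12 tested genes of the NK cell list were lower in ILC2. The classes were divided by *Ncr1*, and listed genes with no UMI in ILC2 could be tested only through the NK cells. This direction therefore follows from the gates and gives no separate support to the label. The 10 largest changes had no UMI in ILC2 and included *Gzma*, granzyme A (at least 681-fold lower), *Klrd1* (71.3), *Klrb1c*, which encodes NK1.1 (61.2), *Klre1* (58.5), *Ccl4* (55.1), *Prf1*, perforin (23.9) and *Eomes* (22.1). The signalling adaptors *Tyrobp* and *Fcer1g* were lower by 3.38 and 3.85 on the log2 scale.

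The GATA motif described above was present in the promoters of 15 of 63 genes higher in ILC2 than in CD3 cells (23.8%) and of 19 of 65 lower ones (29.2%), against 21.3% of the 2037 tested genes with a RefSeq promoter. Against NK cells the shares were 21.1% of higher and 26.4% of lower genes, with 21.4% of those tested.

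The ILC2 of each day were then set beside those of sham. A gene was counted where its level differed by at least 2-fold, reached 100 CPM in either library with 20 UMIs in both together, and had an exact 95% binomial interval of the ratio that left out 1. This is a rule of size with no test, since there is 1 library per time point, and the 4 comparisons share the sham cells. On day 3, 90 of 1070 genes were higher (8.41%) and 42 lower (3.93%). On day 7, 47 of 917 were higher (5.13%) and 48 lower (5.23%), on day 14, 102 of 1063 were higher (9.6%) and 93 lower (8.75%), and on day 28, 51 of 833 were higher (6.12%) and 52 lower (6.24%). With the day 7 floor on UMIs, which left 5 ILC2 on day 14, fewer genes were higher than lower on day 14, as the last section gives.

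Interferon-stimulated genes were highest in the day 3 ILC2. Their 26 measured members together stood at 1480 CPM in sham and 5008 CPM on day 3, and at 1534, 899 and 1770 CPM on day 7, day 14 and day 28. The median cell held 1309 CPM in sham (373 to 2609 over 16 cells) and 4639 CPM on day 3 (1922 to 10173 over 9 cells), so that the ranges of the cells overlapped only between 1922 and 2609 CPM. UMIs were found for 25 of the 26 members on day 3 and 15 in sham. The limit on low levels let 7 of the 26 members be compared, 4 of them only through their day 3 level (*Irf7*, *Bst2*, *Ifi47* and *Gbp7*), so that no count of higher members is read from it. The 3 that reached 100 CPM in sham were *Ifi203* with 10 and 20 UMIs, *Slfn2* with 14 and 24 and *Ly6e* with 78 and 83, and without the highest day 3 cell the first of these had a ratio of 1.73 (0.699 to 4.40) and the second 1.07 (0.424 to 2.58). Of members at or near 0 in sham, whose counts are given as a description only, *Irf7*, the amplifier of interferon responses, had no UMI in sham and 22 on day 3. *Bst2*, which encodes tetherin, had 4 and 48, and *Isg15* and *Isg20* had 0 in sham and 15 and 17 on day 3. *Ly6a*, which encodes the interferon-responsive surface protein Sca-1 and was on the surface list, had 26 UMIs in sham and 361 on day 3, when all 9 cells held it. Its level of 4994 CPM was 16.7 times that of sham (11.2 to 25.99), and its ratio was 1.98 on day 7 (1.13 to 3.48, or 1.33 with 0.689 to 2.53 without the highest day 7 cell), 0.603 on day 14 (0.277 to 1.24, or 0.160 with 0.0310 to 0.522 without the highest day 14 cell) and 0.650 on day 28 (0.255 to 1.48).

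The same genes stood high on day 3 in other cells of that library. The 26 members had 11567 CPM in CD3 cells of the same gate against 1664 in sham, 5547 against 1735 in NK cells, 7474 against 2860 in B cells and 10594 against 598 in *Car4* macrophages. *Ly6a* went from 229 to 3249 CPM in the CD3 cells, from 294 to 2241 in NK cells, from 131 to 2030 in B cells and from 5.60 to 1074 in *Car4* macrophages. Day 3 is 1 library, so that time after bleomycin and library cannot be told apart.

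**Figure D4:**
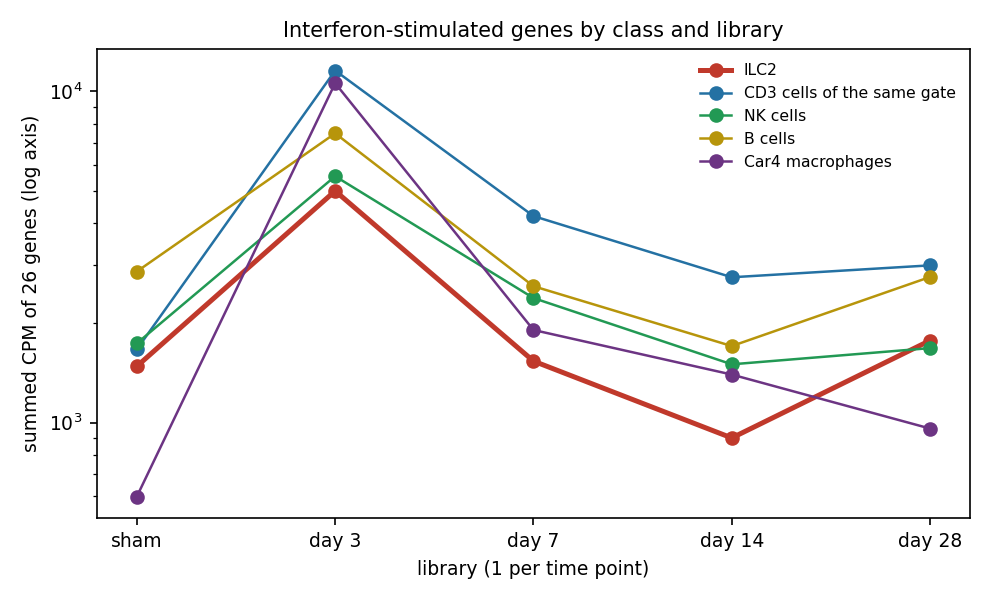
Summed level of 26 interferon-stimulated genes by library, in CPM of summed UMIs on a log axis, for ILC2 and 4 other classes, with 1 point per class and library. All 5 classes are highest on day 3, where ILC2 stand at 5008 CPM and CD3 cells of the same gate at 11567 CPM.

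Several of the other large differences from sham came from 1 cell. On day 3, 41 of 42 UMIs of *Ptgs2*, the inducible cyclooxygenase, and all 27 of *Gem* lay in a single ILC2. The lower levels of *S100a8* and *S100a9*, neutrophil genes, followed a single sham barcode with 37 of 39 and 58 of 63 UMIs, and that of *Ccl5* a sham cell with 33 of 38. On day 28, 37 of 40 UMIs of *Cd74* and 29 of 32 of *H2-Aa*, both genes of antigen presentation, came from 1 cell, and on day 14 the hemoglobin genes did. When each gene was counted without its highest cell in each library, 47, 19, 51 and 26 genes were higher on day 3, day 7, day 14 and day 28.

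Other differences were spread over the cells, and some were also found in other cell classes. *Apoe*, a lipid carrier of macrophages, had no UMI in sham, 3 on day 3 and 24, 57 and 41 on day 7, day 14 and day 28, in 7 of 8, 17 of 17 and 11 of 11 ILC2. On day 7, 12 of the 24 lay in 1 cell, without which the level fell from 472 to 265 CPM. In CD3 cells of the same gate it went from 16.0 CPM in sham to 295, 950 and 619 CPM, and in *Car4* macrophages from 59.1 to 2495, 3678 and 2456. *Spp1*, osteopontin, had 4, 1, 16, 117 and 50 UMIs from sham to day 28, or 45.9, 13.8, 315, 1753 and 1212 CPM, and was found in 10 of 11 ILC2 of day 28. It was thus highest on day 14, as in the CD3 cells with 37.2, 77.5, 124, 1152 and 904 CPM, and 12 of the 16 day 7 UMIs lay in 1 cell. *Lyz2*, lysozyme, had 826 CPM in sham, 125 on day 3, 728 on day 7, 1977 on day 14 and 2497 on day 28 (309 on day 7 without its highest cell), and the CD3 cells had 728, 173, 600, 1612 and 2013. *Rpl29*, a ribosomal protein gene with 170 UMIs in sham, had no UMI in the 17 cells of day 14, at least 43.4-fold lower, and 6.11 CPM in CD3 cells, 6.25 in NK cells, 4.90 in B cells and 5.67 in *Car4* macrophages of that library. *Gm8730* had 34 UMIs in sham and 1, 1 and 0 on day 7, day 14 and day 28, and *Gm10709* had 0 in sham and 54 on day 3. The day 3 level of *Gm10709* was 747 CPM in ILC2, 577 in CD3 cells, 529 in NK cells, 604 in B cells and 216 in *Car4* macrophages, against at most 2.91 CPM in any of them in sham. Counts of *Rpl29* and of these predicted genes may be split with near-identical copies and are uncertain. Of the genes higher in ILC2 at a day, those also past 2-fold in CD3 cells of the same gate numbered 34 of 81 on day 3 (42.0%), 16 of 46 on day 7 (34.8%), 47 of 100 on day 14 and 17 of 47 on day 28 (36.2%), against 6.18%, 5.38%, 9.71% and 5.12% of all genes compared. Of the genes lower in ILC2 they numbered 14 of 41, 15 of 47, 28 of 90 and 13 of 49, against 5.61%, 5.60%, 6.09% and 6.59%. Of the higher genes of day 3, 46 of 86 (53.5%) were past 2-fold in *Car4* macrophages, against 12.8% of all genes compared, and 29 of 84 (34.5%) in NK cells and 19 of 81 (23.5%) in B cells, against 4.40% and 3.19%.

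**Figure D5:**
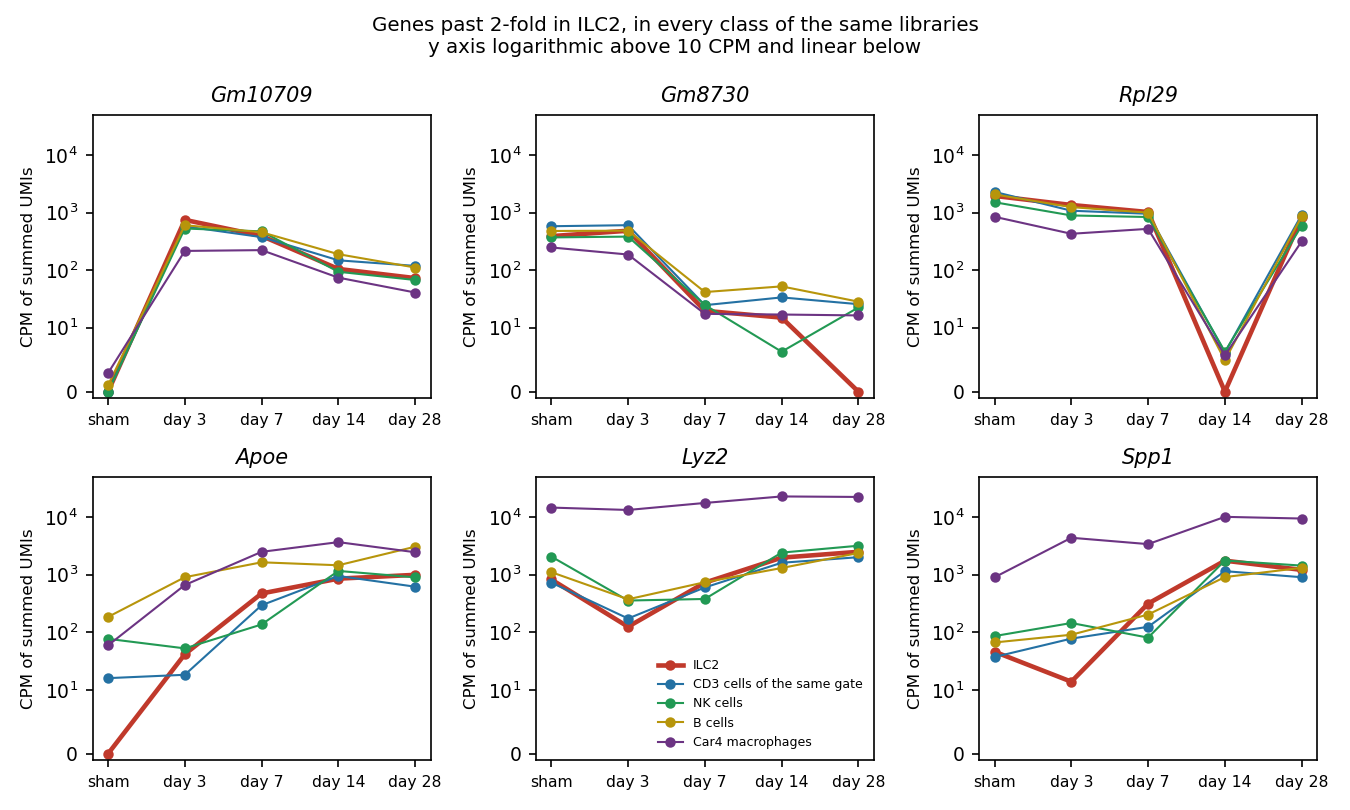
Levels of 6 genes in ILC2 and 4 other classes by library, in CPM of summed UMIs on an axis that is logarithmic above 10 CPM and linear below. *Rpl29* drops to 0 in ILC2 and to 4.90 to 6.25 CPM in the other classes on day 14, and *Apoe* in ILC2 lies at 0 in sham and at 994 CPM on day 28.

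*Podnl1* had 20 UMIs in 11 sham ILC2 and none on day 7, when the CD3 cells went from 186 to 39.6 CPM. *Cxcr4*, the CXCL12 receptor, had 5 UMIs in sham and 24 on day 7, or 57.3 and 472 CPM, against 149 and 213 CPM in the CD3 cells. Of the 24 UMIs 12 lay in 1 cell, without which the day 7 level was 267 CPM and the ratio to sham fell from 8.23 to 4.65 (1.53 to 16.9). *Ly6e*, an interferon-responsive surface protein gene, had 78 UMIs in sham and 2 on day 14, when NK cells went from 425 to 43.7 CPM. *Ccl6* had 49 UMIs in 16 of 16 sham cells and 4 in 4 of 9 cells on day 3, and went from 622 to 53.9 CPM in B cells. *Zfp36l2*, an mRNA-decay factor, had 608, 941, 865, 2322 and 1843 CPM, and *Jund* 2271, 1231, 1121, 554 and 1333. *Pdcd1* had 5 UMIs in sham and 31 on day 3. *Ctla2a*, a cysteine protease inhibitor gene, had 102 and 242, a ratio of 2.86, but 121 of the 242 lay in 1 cell and the ratio without it was 1.79 (1.36 to 2.35), under the limit of 2-fold.

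RNA of genes listed for macrophages and monocytes was found in the ILC2 barcodes. The 19 listed macrophage and monocyte genes together stood at 2994, 1480, 2989, 5858 and 6934 CPM, led by *Lyz2* in all libraries except day 3, where *Cebpb* led, and B cells had 4401, 3229, 4900, 5170 and 8440 CPM. CD3 cells of the same gate had 2733, 1589, 3151, 4977 and 5305 CPM. Over all libraries the list stood at 3760 CPM in ILC2, 3588 in these CD3 cells, 4719 in B cells and 9017 in NK cells. *Scgb1a1*, a club cell gene, had 631, 96.8, 2477, 869 and 655 CPM in ILC2. The source of this RNA and its part in the differences between libraries were not tested. RFP, taken as the tdT reporter, had 18 UMIs in 11 of 16 sham ILC2, 1 in 1 of 9 on day 3, 9 in 4 of 8 on day 7, 19 in 10 of 17 on day 14 and 16 in 9 of 11 on day 28, while *Ms4a3* had none. In CPM this was 206, 13.8, 177, 285 and 388 in ILC2, against 212, 131, 248, 306 and 202 in NK cells, 144, 77.5, 140, 260 and 135 in CD3 cells of the same gate, 103, 65.6, 114, 199 and 85.8 in B cells and 130, 374, 149, 752 and 351 in *Car4* macrophages. The ILC2 intervals of sham (122 to 326), day 7 (80.9 to 336) and day 14 (171 to 444) held the NK cell level. On day 3, with 1 UMI, the ILC2 interval (0.350 to 77.1) lay below that level, and on day 28 (222 to 630) above it. After thinning, 75.0% of day 28 ILC2 (6 of 8) held RFP, against 16.0% of B cells, and 11.1% on day 3 (1 of 9) against 11.3%.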

How the data were processed

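Per the labels, reads of 5 10x 3′ libraries were processed with Cell Ranger 6.0.0 on mm10, and the authors deposited unnormalized UMI counts for each barcode and gene. The study's limits on barcodes were applied, namely 300 to 8000 genes, 800 to 60000 UMIs and a mitochondrial share under 15%. No doublet caller was run. Members, gene lists and tests were chosen with earlier results of these data known. NK cells held *Ncr1*, B cells *Cd79a* and *Ms4a1*, and *Car4* macrophages *Car4* and 2 or more UMIs of *Cd68* and *Mrc1*, with no UMI of the genes of the other lineages. Levels are UMIs summed per class and library, as CPM, and 3 UMIs in the ILC2 of a library correspond to 34.4, 41.5, 59.0, 44.9 and 72.7 CPM from sham to day 28. Levels of day 3 and day 7 rest on fewer than the planned minimum of 10 ILC2 and were added after the cell numbers were seen. Classes were compared with edgeR 4.0.16 (quasi-likelihood test, TMM, filterByExpr, library as a block) in R 4.3.3, with Benjamini-Hochberg adjustment over all genes tested. The classes come from the same libraries, 1 per time point, so that these p-values measure the spread between 3 libraries of different days. Intervals are exact 95% binomial or Poisson intervals (scipy 1.17.1). Named genes were mainly listed genes with at least 20 UMIs in ILC2 or at 0, the 10 largest changes per direction between classes with the same direction in every library, the 5 largest ratios per direction between days, and RFP. Some listed genes with fewer UMIs, such as *Il13*, *Isg15*, *Isg20*, *Trac* and *Cd4*, are given as a description. Tests were tried on simulated data first. Alternatives covered the gate, the depth, the filter on low counts, the block, DESeq2 1.42.0 and leaving out each library. Some genes that meet these rules are not reported here.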

Additional observations from a re-analysis of the deposited data

How the results depend on the processing

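The share of ILC2 barcodes stayed within its interval at each time point with 2 or more *Gata3* UMIs, with *Il1rl1* or *Areg* required, with a mitochondrial limit of 10%, with cells thinned to 3000 UMIs before the gate and with *Cd4*, *Cd8a*, *Cd8b1*, *Trac* and *Foxp3* at 0. With *Cd68*, *Mrc1*, *Lyz2*, *Cd79b* and *Epcam* all at 0 it was 0, 0.0250, 0.0211, 0 and 0% from sham to day 28. As a share of gated lymphocytes, with the gate unaltered, ILC2 made up 1.81, 0.451, 0.623, 1.00 and 0.577%. With the lowest day 7 UMI count as a floor it was 0.0894% at day 14 and 0.0268% at day 28. Against the CD3 cells the counts of genes higher and lower were 23 and 19 without the library block, 43 and 37 with DESeq2 and 136 and 172 with a minimum of 5 ILC2 per library, an alternative chosen after seeing the data that brings in day 3 and day 7. Without a filter on low counts 199 genes were lower. Leaving out 1 library gave 45 to 86 genes higher and 28 to 85 lower, with the lowest values without sham. Against NK cells the counts were 98 and 124 without the block and 110 and 105 with DESeq2, and 333 genes were lower without the filter. Leaving out 1 library gave 170 to 247 higher and 183 to 223 lower. Of 73 named or listed genes called against the CD3 cells 23 missed the threshold with DESeq2, and of 93 against NK cells 11 did. With cells that held *Cd4*, *Cd8a*, *Cd8b1*, *Trac* or *Foxp3* left out, *Hba-a1* and *Hbb-bs* turned to -1.53 and -4.89 against the CD3 cells and *Hbb-bs* to -0.86 against NK cells, because the hemoglobin-rich cell left with them. Of the genes past 2-fold from sham, 47, 19, 51 and 26 were higher at day 3, day 7, day 14 and day 28 when each gene was counted without its highest cell, also chosen after seeing the data as were the ratios of single genes without a highest cell, and with the day 7 floor, which left 5 ILC2 at day 14 and 2 at day 28, 28 were higher and 73 lower at day 14 and 31 higher and 33 lower at day 28. The class comparisons could not be run with the day 7 floor or with the stricter myeloid gate, since fewer than 2 libraries then held 10 ILC2. No paired analysis between time points was possible because the labels give each time point 1 library. The classes were paired within libraries by the library block of the main comparison. Depth limits what a 0 means, since 3 UMIs already amount to 72.7 CPM at day 28.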
